A study of Mus musculus with 62 samples.

Results

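The genes described here serve antigen presentation and the response to interferon. They are the protein-coding genes named H2-, Ifi followed by a digit or t, Ifnar, Ifngr, Irf or Stat followed by a digit, Psmb8, Psmb9, Psmb10, Tap1, Tap2, Jak1 to Jak3, Oas, Trim21, Trim25 and Trim30, together with B2m, Tapbp, Cd74 and Nlrc5. Of the 12483 genes with a row in either count table, 37 fitted, with 31 of the 11569 rows of the table for the nucleus accumbens (NAc) and prefrontal cortex (PFC), 34 of the 12047 rows of the table for the suprachiasmatic nucleus (SCN), and 28 in both. The annotation holds 117 protein-coding genes of these names, and the 80 without a row, Cd74, H2-Aa, Tap1, Psmb8, Psmb9, Nlrc5 and Irf7 among them, are not analysed here. The names also took in Irf2bp1, Irf2bp2 and Irf2bpl, which are IRF2-binding proteins and not interferon regulatory factors, reported here under that role.

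The study exposed C57BL/6J mice of both sexes to circadian rhythm disruption (CRD), repeated reversals of the light cycle, beside handled controls on a fixed cycle. For the sequenced tissue the labels name CRD in adolescence and in adulthood, while the study's methods name adolescent CRD alone, each with controls, and which of these the libraries hold could not be settled here. Brain tissue was taken at ZT6, about 4 weeks after the paradigm ended, and total RNA from punches was sequenced. The 26 mice gave 62 libraries, of which 26 were NAc, 19 SCN and 17 PFC. The labels name the region and the mouse of each library but neither CRD or control nor sex, so libraries were grouped by region alone, and neither CRD nor sex could be compared.

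In antigen presentation by class I molecules, the immunoproteasome cuts proteins into peptides, the TAP transporter carries them into the endoplasmic reticulum, tapasin (Tapbp) helps to load them, and a heavy chain (H2-K1, H2-D1) shows them at the cell surface bound to beta-2 microglobulin (B2m). Interferons bind paired receptor chains, JAK kinases then phosphorylate STAT factors, and STAT and IRF factors switch on interferon-stimulated genes and class I genes through response elements in their promoters. In the brain these genes are known from microglia, endothelial cells and other supporting cells, and class I molecules also from neurons.

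The promoters of 7 of the genes called lower in the NAc than in the PFC, not the 7 with the largest changes, are given first. They are from RefSeq on GRCm38.p6 and cover the 250 bases before the start of transcription that RefSeq gives, 5′ to 3′ on the strand of the gene, with letters in capitals that match an interferon-stimulated response element core (GAAANNGAA), a gamma-activated site (TTCNNNGAA) or a CCAAT box (CCAAT) on either strand. The windows lie at chr2:122147437-122147686 (plus strand) for B2m, chr17:35262844-35263093 (plus) for H2-D1, chr17:34000348-34000597 (minus) for H2-K1, chr17:36032702-36032951 (minus) for H2-T23, chr8:105938393-105938642 (minus) for Psmb10, chr19:34550444-34550693 (plus) for Ifit2 and chr19:34583279-34583528 (plus) for Ifit3.
B2m: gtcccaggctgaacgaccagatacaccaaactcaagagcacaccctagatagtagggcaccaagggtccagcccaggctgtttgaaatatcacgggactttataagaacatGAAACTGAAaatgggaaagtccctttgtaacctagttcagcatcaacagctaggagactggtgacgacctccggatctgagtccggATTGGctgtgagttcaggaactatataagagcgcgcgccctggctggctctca
H2-D1: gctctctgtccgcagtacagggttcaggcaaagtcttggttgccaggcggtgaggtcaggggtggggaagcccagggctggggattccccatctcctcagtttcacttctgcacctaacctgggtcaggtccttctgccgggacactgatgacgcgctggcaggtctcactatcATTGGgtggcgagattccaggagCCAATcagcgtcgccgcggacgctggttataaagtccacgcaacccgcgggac
H2-K1: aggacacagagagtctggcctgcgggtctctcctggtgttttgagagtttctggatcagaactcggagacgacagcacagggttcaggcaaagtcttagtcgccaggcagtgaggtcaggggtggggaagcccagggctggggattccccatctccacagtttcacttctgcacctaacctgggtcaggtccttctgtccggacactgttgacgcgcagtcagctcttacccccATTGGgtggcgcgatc
H2-T23: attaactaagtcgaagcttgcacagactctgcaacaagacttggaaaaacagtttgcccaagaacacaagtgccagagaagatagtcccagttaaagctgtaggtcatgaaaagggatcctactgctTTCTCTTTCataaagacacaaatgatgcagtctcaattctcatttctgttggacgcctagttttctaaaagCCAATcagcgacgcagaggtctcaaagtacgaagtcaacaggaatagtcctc
Psmb10: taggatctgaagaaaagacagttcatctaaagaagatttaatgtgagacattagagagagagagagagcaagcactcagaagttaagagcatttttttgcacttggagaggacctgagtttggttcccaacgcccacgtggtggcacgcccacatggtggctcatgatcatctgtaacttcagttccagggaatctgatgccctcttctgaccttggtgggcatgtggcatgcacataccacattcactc
Ifit2: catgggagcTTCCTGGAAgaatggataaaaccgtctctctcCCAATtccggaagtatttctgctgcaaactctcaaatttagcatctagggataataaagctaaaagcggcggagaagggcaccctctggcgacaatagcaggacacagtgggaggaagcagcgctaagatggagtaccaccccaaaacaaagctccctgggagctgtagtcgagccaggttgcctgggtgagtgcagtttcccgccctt
Ifit3: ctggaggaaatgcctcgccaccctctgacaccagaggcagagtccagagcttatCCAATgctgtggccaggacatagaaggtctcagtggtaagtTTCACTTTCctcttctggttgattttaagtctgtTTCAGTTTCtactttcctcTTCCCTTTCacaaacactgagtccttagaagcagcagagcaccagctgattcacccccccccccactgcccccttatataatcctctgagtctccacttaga

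Of the 37 genes, 34 matched a promoter of the RefSeq table by symbol. The response element core was in 9 of the 34 promoters (26.5%), against 7.16% of all 27025 promoters of that length. The gamma-activated site was in 6 (17.6%), against 7.18% of all, and the CCAAT box in 18 (52.9%), against 34.5% of all. The B2m promoter held GAAACTGAA from 139 to 131 bases before the start and a CCAAT box on the other strand, and the Ifit3 promoter held 3 response element cores, all on the other strand. The window of Irf1, a factor induced by interferon, held the gamma-activated site TTCCCCGAA from 90 to 82 bases before the start. No letters of these motifs were found in the window of Psmb10. The RefSeq start lies inside the gene as GENCODE annotates it for H2-D1, H2-T23 and Psmb10, so their windows overlap the annotated gene. A match is only a match of letters in this window, and no binding was measured.

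The total count per library lay between 16496666 and 35389742 in the SCN, between 28879724 and 60009482 in the NAc, and between 31216225 and 50333579 in the PFC. No pair of libraries held the same counts. The labelled regions were checked against their markers in summed CPM (counts scaled to a common library size, with edgeR's TMM factors). The 3 cortical markers Slc17a7, Tbr1 and Neurod6 summed to 669.7 to 796 CPM in PFC libraries and 6.85 to 406 CPM in NAc libraries, and the 5 striatal markers (Drd1, Drd2, Ppp1r1b, Adora2a and Rgs9) to 400 to 976 CPM in NAc libraries and 11.9 to 43.4 CPM in PFC libraries, so some NAc libraries carried cortical transcripts. The 5 SCN markers (Six6, Lhx1, Nms, Vip and Prok2) summed to 15.2 to 220 CPM in the SCN. The lowest library, J1199, and J1140 had the highest sums there of the 3 striatal markers in that table, 244 and 125 CPM against a median of 28.6 CPM. Mouse numbers were split at their gap, into those no higher than J1021 (the lower range) and those of J1140 or more (the upper range), and each range was also examined alone.

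The first question was at what level each gene is present in each region. B2m (ENSMUSG00000060802, chromosome 2 from 122147686 to 122153083) was the most abundant of these genes per kilobase of exon in every region, with medians of 31.6, 20.2 and 26.4 CPM per kilobase in the SCN, NAc and PFC. It was followed in the NAc and PFC by Jak1, the kinase shared by interferon and other cytokine receptors, with 10.7 and 12.8 CPM per kilobase, and in the SCN by Irf2bp1 with 12.5 CPM per kilobase. The classical heavy chain H2-D1 (ENSMUSG00000073411, chromosome 17 from 35262730 to 35267499) had 7.29, 3.43 and 3.68 CPM per kilobase in the SCN, NAc and PFC, and H2-K1 (ENSMUSG00000061232, chromosome 17 from 33996017 to 34000347) had 4.08, 1.87 and 2.15. At the low end stood Oasl2, an interferon-stimulated gene of the oligoadenylate synthetase family, with 0.285 CPM per kilobase in the SCN, and Irf8, a factor of microglia and other myeloid cells, with 0.344 in the NAc and 0.302 in the PFC.

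Of the 28 genes in both tables, 20 had their highest median in the SCN, 7 in the PFC and 1, Jak2, in the NAc, and the same split was found when counts were scaled to the total on nuclear protein-coding genes. Of all 11133 rows in both tables, 56.8% were highest in the SCN, 22.7% in the PFC and 20.5% in the NAc. The median over the 28 genes of the ratio of region medians was 1.42 for the SCN over the NAc and 1.27 for the SCN over the PFC, or 1.37 and 1.22 on the other scale, where all rows gave 1.18 for both, or 1.13 and 1.16. Every SCN library was above every NAc library in 8 of the 28 genes, against 11.6% of all rows, and above every PFC library in 4, against 16.6%, so the gap to the PFC was no more frequent among these genes than among all rows. B2m lay between 23.2 and 35.5 CPM in SCN libraries (median 27.1). NAc libraries held 8.45 to 19.8 CPM (median 17.4) and PFC libraries 15.8 to 47.9 CPM (median 22.7). The SCN thus lay above all NAc libraries and overlapped with the PFC. H2-D1 in SCN libraries lay between 13.9 and 27.5 CPM (median 18.8), above all NAc libraries (5.11 to 11.9 CPM, median 8.85). H2-K1 lay between 9.38 and 16.03 CPM (median 11.99), above all NAc libraries (3.89 to 7.52 CPM, median 5.48). Both overlapped with the PFC, where 1 library alone reached the levels of the SCN. Without overlap with either other region on both scales, the SCN was also highest in Tapbp, with 16.2 to 28.1 CPM against at most 13.4 CPM, in Stat5b, a STAT of growth hormone and cytokine signalling, with 34.1 to 54.9 CPM against at most 22.2 CPM, and in Irf2bp1. Ifngr2, the second chain of the interferon gamma receptor, went the other way, with 10.54 to 20.4 CPM in the SCN, below all PFC libraries (22.2 to 28.7 CPM), the 1 of 28 genes to do so, against 7.32% of all rows. The SCN was counted into a table of its own and was not tested against the other regions.

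Members found in the SCN table alone were few and low. H2-Q2, a non-classical heavy chain, lay between 1.39 and 9.29 CPM (median 3.59), and Tap2, a chain of the peptide transporter, between 2.72 and 7.57 CPM (median 4.31). Irf1 had 1.55 to 6.43 CPM (median 2.73) and Ifitm10, whose place here rests on its name, 1.25 to 4.70 CPM (median 3.11). Oasl2 had 0.818 to 4.61 CPM (median 1.82), on 12 to 239 counts per library. These genes varied several-fold between SCN libraries. Ifit3b had a median of 3.74 CPM, but 35.7% of its 75-base windows also occur in Ifit3, so the counts of this pair depend on how shared reads were treated. H2-DMa, which edits the peptides of class II molecules, Stat6, the STAT of interleukin 4, and Irf8 had rows in the NAc and PFC table alone, with NAc medians of 4.39, 2.39 and 2.43 CPM and PFC medians of 4.01, 3.21 and 2.13 CPM.

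**Figure D1:**
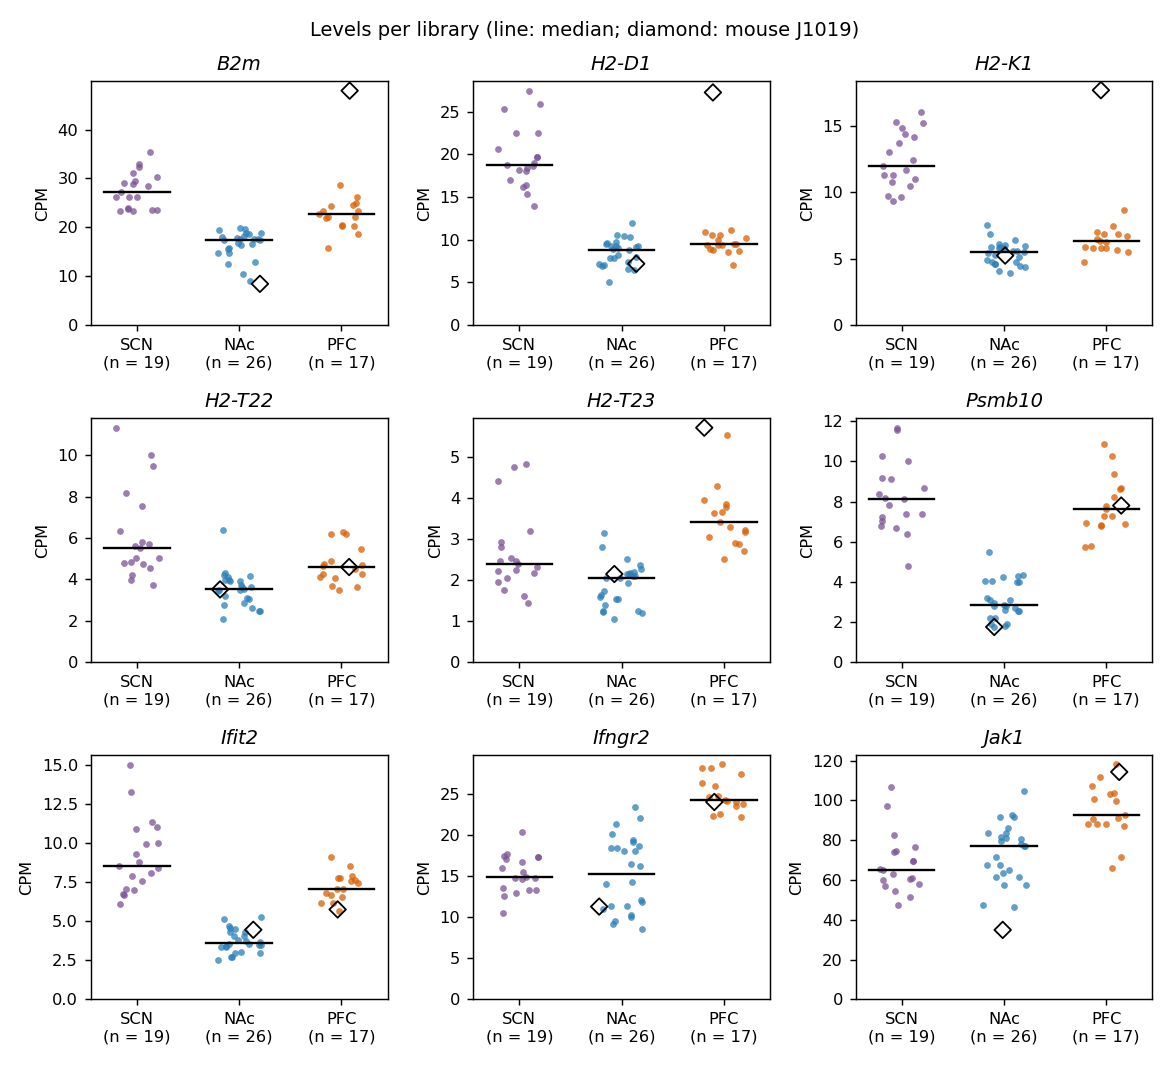
CPM (y axis, linear from 0) of 9 genes in each library of the SCN, NAc and PFC. Each point is a library, the line is the median, and the diamond marks mouse J1019, whose PFC library is the highest of all PFC libraries in B2m, H2-D1, H2-K1 and H2-T23 and whose NAc library is the lowest of all NAc libraries in B2m and Jak1.

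The second question was how the NAc differed from the PFC. Class I genes were lower in the NAc, and so were Psmb10, Ifit2, Ifit3 and Ifitm3, while the receptors, kinases and STAT factors went both ways. With edgeR's quasi-likelihood test, at an adjusted p under 0.05 and a change of at least 1.2-fold, 13 of the 31 genes were lower in the NAc, against 21.7% of all rows, 5 were higher, against 23.7% of all rows, and 13 were not called. The median log2 fold change was -0.17 over the 31 genes and 0.016 over all 11569 rows. In bulk tissue, fewer cells of a type and less RNA per cell cannot be told apart.

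All 5 class I chains in the table were lower in the NAc, with a median log2 fold change of -0.40. H2-T23, the mouse counterpart of HLA-E, had 1.06 to 3.15 CPM in NAc libraries (median 2.05) and 2.52 to 5.72 CPM in PFC libraries (median 3.42). The regions overlapped at their edges, and the NAc was lower in all 17 mice with both libraries. Its log2 fold change was -0.92 ± 0.11 (SE), with an adjusted p of 9.79e-10 (edgeR). B2m fell by 0.56 ± 0.098 on the log2 scale, a level 1.48-fold higher in the PFC (adjusted p = 2.36e-06, edgeR), and was lower in the NAc in 15 of the 17 mice. H2-T22, a non-classical chain, had 2.09 to 6.41 CPM in NAc libraries (median 3.53) against 3.50 to 6.30 CPM in PFC libraries (median 4.60), with a log2 fold change of -0.40 ± 0.094 and an adjusted p of 0.000246 (edgeR). H2-K1 differed by -0.38 ± 0.10 (adjusted p = 0.00131, edgeR) and H2-D1 by -0.31 ± 0.11 (adjusted p = 0.0107, edgeR). These last calls needed 1 library. Without PFC J1019, left out after seeing the data, the fold changes were -0.24 for H2-K1 and -0.16 for H2-D1, with edgeR adjusted p of 0.00283 and 0.0525, and neither was called. In the upper range of mouse numbers they were -0.23 and -0.064, again not called, and in the lower range -0.58 and -0.62. Reads are shared between heavy chain genes, since 18.5% of the 75-base windows of H2-T22, 5.91% of those of H2-T23, 5.40% of those of H2-D1 and 3.10% of those of H2-K1 occur in another gene, so the split between heavy chains is uncertain. H2-T22 also overlaps A930015D03Rik on the other strand, and the counting is not stated to use strand, so their reads cannot be told apart.

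Among the genes of peptide supply and loading, Psmb10 (ENSMUSG00000031897, chromosome 8 from 105935735 to 105938444), a catalytic subunit of the immunoproteasome, had the largest log2 fold change of the 31. NAc libraries held 1.74 to 5.51 CPM (median 2.85) and PFC libraries 5.76 to 10.9 CPM (median 7.63). The regions did not overlap. Its log2 fold change was -1.35 ± 0.12, a level 2.55-fold higher in the PFC (adjusted p = 5e-14, edgeR). Only Psmb10 and Ifit2, 2 of the 31 genes, were lower in every NAc library than in every PFC library, against 4.67% of all rows, and none was higher in every NAc library, against 4.83% of all rows. Tapbp (log2 fold change -0.17, adjusted p = 0.057, edgeR) and H2-DMa (0.19, adjusted p = 0.145, edgeR) were not called. Tapbp shares exon bases with Zbtb22 and Gm19412, and H2-DMa with Brd2.

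Of the 4 interferon receptor chains, 2 were lower in the NAc, 1 was higher and 1 was not called. Ifngr2 had 8.52 to 23.4 CPM in NAc libraries (median 15.2) and 22.2 to 28.7 CPM in PFC libraries (median 24.3). The spread was wide in the NAc and narrow in the PFC, and the edges overlapped. Its log2 fold change was -0.72 ± 0.10 (adjusted p = 5.77e-08, edgeR), and it was lower in the NAc in 17 of 17 mice. Its partner Ifngr1, the chain that binds interferon gamma, was higher in the NAc, with 8.73 to 13.6 CPM (median 11.2) against 6.92 to 10.3 CPM in the PFC (median 9.03), a log2 fold change of 0.32 ± 0.054 (adjusted p = 2.12e-06, edgeR). Ifnar1, a chain of the type I receptor, fell by 0.27 ± 0.038 (adjusted p = 2.34e-08, edgeR), close to the 1.2-fold limit, and dropped below that limit in 5 of the 11 alternatives, the block by mouse (-0.26) among them. The second type I chain Ifnar2 had a log2 fold change of 0.011 ± 0.074 (adjusted p = 0.906, edgeR).

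Among kinases and STAT factors, Jak1 had 34.9 to 105 CPM in NAc libraries (median 77.1) and 65.8 to 118 CPM in PFC libraries (median 92.5), with a log2 fold change of -0.39 ± 0.090 (adjusted p = 0.000208, edgeR). Jak2, the kinase of Ifngr2 and of many cytokine receptors, had 27.4 to 41.8 CPM in NAc libraries (median 33.9) and 23.7 to 29.02 CPM in PFC libraries (median 26.7), with a log2 fold change of 0.38 ± 0.048 (adjusted p = 2.07e-09, edgeR). The regions overlapped for both kinases, which differed in opposite directions. Jak2 and Stat5b (log2 fold change 0.42 ± 0.055, adjusted p = 6.23e-09, edgeR) were higher in the NAc in 17 of 17 mice. Stat6 was lower, with -0.34 ± 0.12 (adjusted p = 0.00902, edgeR), except that the upper range of mouse numbers gave -0.24 with no call. Stat2, the partner of Irf9 in the type I response (-0.20), and Stat3, the factor of interleukin 6 signalling (-0.046), were not called, with edgeR adjusted p of 0.0918 and 0.622. With the mouse number as a block in the 17 mice, Stat2 was called lower (-0.31, adjusted p = 0.041, edgeR). Stat3 overlaps Stat5a, Stat6 overlaps Nab2 and Jak1 overlaps Raver2 on the other strand.

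None of the 4 IRF factors in the table was called. Irf2 (-0.18), Irf3 (-0.16), Irf8 (0.20) and Irf9 (-0.11) had edgeR adjusted p of 0.00849, 0.173, 0.0761 and 0.278, and Irf2 missed the call on its size, but was called in the upper range (-0.34) and had 0.027 in the lower range. Irf9 shares exon bases with Rnf31 and Irf3 with Bcl2l12. Irf2bp1 (0.28 ± 0.048, adjusted p = 1.96e-06, edgeR) and Irf2bpl (0.30 ± 0.073, adjusted p = 0.000473, edgeR) were higher in the NAc, both near the 1.2-fold limit, and Irf2bp2 (0.087) was not called. With the mouse number as a block in the 17 mice, Irf2bp1 had 0.24 and Irf2bpl 0.21, and 3 genes in place of 5 were called higher.

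Of the 5 interferon-stimulated genes, Ifit2 (ENSMUSG00000045932, chromosome 19 from 34550694 to 34576419), which binds viral RNA, had 2.50 to 5.30 CPM in NAc libraries (median 3.61) and 5.64 to 9.13 CPM in PFC libraries (median 7.08). No NAc library reached the lowest PFC library. Its log2 fold change was -0.93 ± 0.078 (adjusted p = 1.89e-14, edgeR). Ifitm3, a membrane protein that hinders the entry of viruses, had 0.942 to 2.66 CPM in NAc libraries (median 1.61) and 1.92 to 5.43 CPM in PFC libraries (median 3.02), on 26 to 268 counts per library. It was lower in the NAc in 17 of 17 mice, with a log2 fold change of -0.85 ± 0.13 (adjusted p = 1.77e-07, edgeR). Ifit3 was lower by -0.45 ± 0.099 (adjusted p = 0.000103, edgeR), with 41.1% of its 75-base windows shared with Ifit3b. Ifi27 (0.052) and Trim25, a ubiquitin ligase of RNA sensing (0.16), were not called, with edgeR adjusted p of 0.698 and 0.0783.

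**Figure D2:**
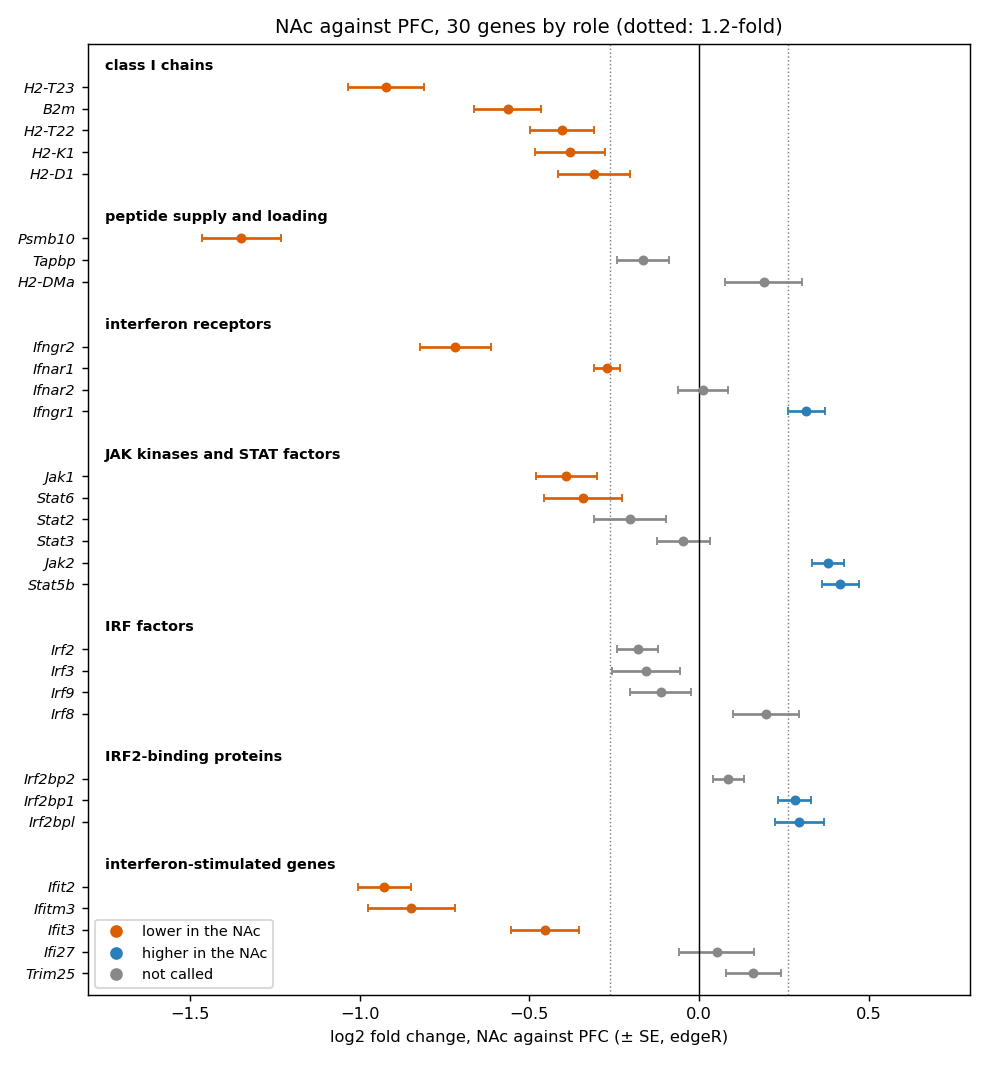
Log2 fold change of the NAc against the PFC with its SE (x axis) for 30 of the genes, grouped by role (y axis), from edgeR on 26 NAc and 17 PFC libraries. The 5 class I chains all lie left of zero, Psmb10 lies farthest left at -1.35, and the dotted lines mark the 1.2-fold limit.

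Cell type markers were measured beside these values. The 14 microglia markers summed to a median of 260 CPM (217 to 293) in NAc libraries and 255 CPM (211 to 284) in PFC libraries, and the 11 endothelial markers to 121 CPM (94.8 to 139) and 132 CPM (93.1 to 161). Median sums were lower in the NAc for the 4 meningeal markers, with 15.4 CPM (8.13 to 49.6) against 30.8 CPM (15.7 to 70.0), the 5 mural cell markers, with 96.7 CPM (69.1 to 120) against 114 CPM (90.2 to 130), the 4 neuronal markers, with 1012.7 CPM (580 to 1805) against 1862 CPM (1525 to 2155), and the 1 marker of border macrophages in the table, with 3.71 CPM (2.40 to 7.17) against 8.84 CPM (5.53 to 18.9). Oligodendrocyte markers were higher, with 844 CPM (499 to 1238) against 238 CPM (117 to 351), and the 5 astrocyte markers had 457 CPM (311 to 669) against 528 CPM (382 to 605). Erythrocyte markers had 49.6 against 67.7 CPM, 1 of 8 lymphocyte markers in the table had 7.12 against 0.243 CPM, and 1 of 5 choroid plexus markers had 5.69 against 0.132 CPM. The part of these cells in the differences was not tested. With only the NAc libraries at or below the median of summed cortical markers, chosen after seeing the data, 13 genes were lower and 6 higher, of which 12 and 3 were also called over all libraries.

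A further 48 genes of the same pathways had been listed, of which 25 had rows in the NAc and PFC table. Of these, 6 were lower in the NAc, 2 were higher and 17 were not called, with a median log2 fold change of -0.12. The share lower was 24%, near the 21.7% of all rows, and the share higher was 8%, below the 23.7% of all rows. The lower genes were Herc6, an interferon-induced ligase, with 1.69 to 5.06 CPM in the NAc against 15.6 to 24.04 CPM in the PFC, the RNA sensors Ifih1 and Tlr7, and Dtx3l, Parp14 and Irgm1. Herc6 had a log2 fold change of -2.74 ± 0.093 (adjusted p = 7.05e-29, edgeR), Tlr7 of -0.82 ± 0.11 (adjusted p = 8.29e-09, edgeR) and Ifih1 of -0.81 ± 0.085 (adjusted p = 1.44e-11, edgeR). Higher were Samhd1, which degrades nucleotides, with 0.53 ± 0.056 (adjusted p = 2.05e-11, edgeR), and Rfx5, which binds promoters of class I and class II genes, with 0.31 ± 0.069 (adjusted p = 0.000142, edgeR). The chaperones of peptide loading were not called, with 0.024 for Calr, 0.074 for Canx and -0.12 for Pdia3.

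The PFC library of mouse J1019 stood apart in H2-D1, H2-K1 and B2m, which was seen in the data and is given as a description. It held 27.3 CPM of H2-D1, where the next PFC library held 11.1 CPM and the median was 9.48 CPM. It held 17.7 CPM of H2-K1, where the next held 8.64 CPM and the median was 6.31 CPM. It held 47.9 CPM of B2m, where the next held 28.7 CPM and the median was 22.7 CPM. On the log2 scale its gap to the next library was 1.29 for H2-D1, 1.03 for H2-K1 and 0.74 for B2m, which ranked 1, 2 and 5 of all 11569 rows. Only 6 rows had a gap of at least 0.5 in this library. The other 3 were Lgals3bp, an interferon-inducible secreted protein, with 11.03 against 5.91 CPM in the next library, C4b, a complement component, with 14.4 against 8.30 CPM, and Abi3bp with 5.86 against 3.95 CPM. The next gaps included Ctss, the protease of antigen processing, with 68.5 against 49.4 CPM, and Gfap, the intermediate filament of astrocytes, with 59.9 against 46.4 CPM. No other PFC library had such a gap in any of the 31 genes.

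In all, the PFC library of J1019 was the highest of the 17 in 6 of the 31 genes (19.4%), B2m, H2-D1, H2-K1, H2-T23, Tapbp and Ifitm3, and in 5 of the 25 listed pathway genes (20%), Adar, Lgals3bp, Parp14, Ctss and Gbp3, against 7.04% of all rows. It was ordinary in H2-T22 (4.60 CPM, the PFC median), Psmb10 (7.80 against a median of 7.63 CPM) and Ifit3 (2.55 against 2.51 CPM). In Ifit2 it was the next to lowest of the 17, with 5.76 against a median of 7.08 CPM. Its summed microglia markers were the highest of the PFC, at 284 against a median of 255 CPM, and Ctss, itself 1 of these markers, held 68.5 of them against a median of 43.7 CPM. By the mean z-score of the microglia markers it was not the highest, with 0.50 against 0.63 in J965, 0.57 in J1014 and 0.51 in J1159. Its endothelial markers stood at 134 against 132 CPM. The NAc library of the same mouse did not share the pattern. It held 8.45 CPM of B2m, the lowest of 26, with 7.19 CPM of H2-D1 and 5.24 CPM of H2-K1, and was also the lowest in Jak1, Stat3 and Ifit3 and the highest in Irf2, with 19.8 CPM. It was thus the lowest in 4 of the 31 genes (12.9%), against 16.1% of all rows. Nuclear protein-coding genes held 23.8% of its counts, against a median of 40.0% in the NAc, and when scaled to those counts it was still the lowest in B2m, with 22.9 against a median of 44.1 CPM. Its neuronal, oligodendrocyte, astrocyte and meningeal marker sums were the lowest of the NAc. No SCN library of this mouse was analysed here.

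**Figure D3:**
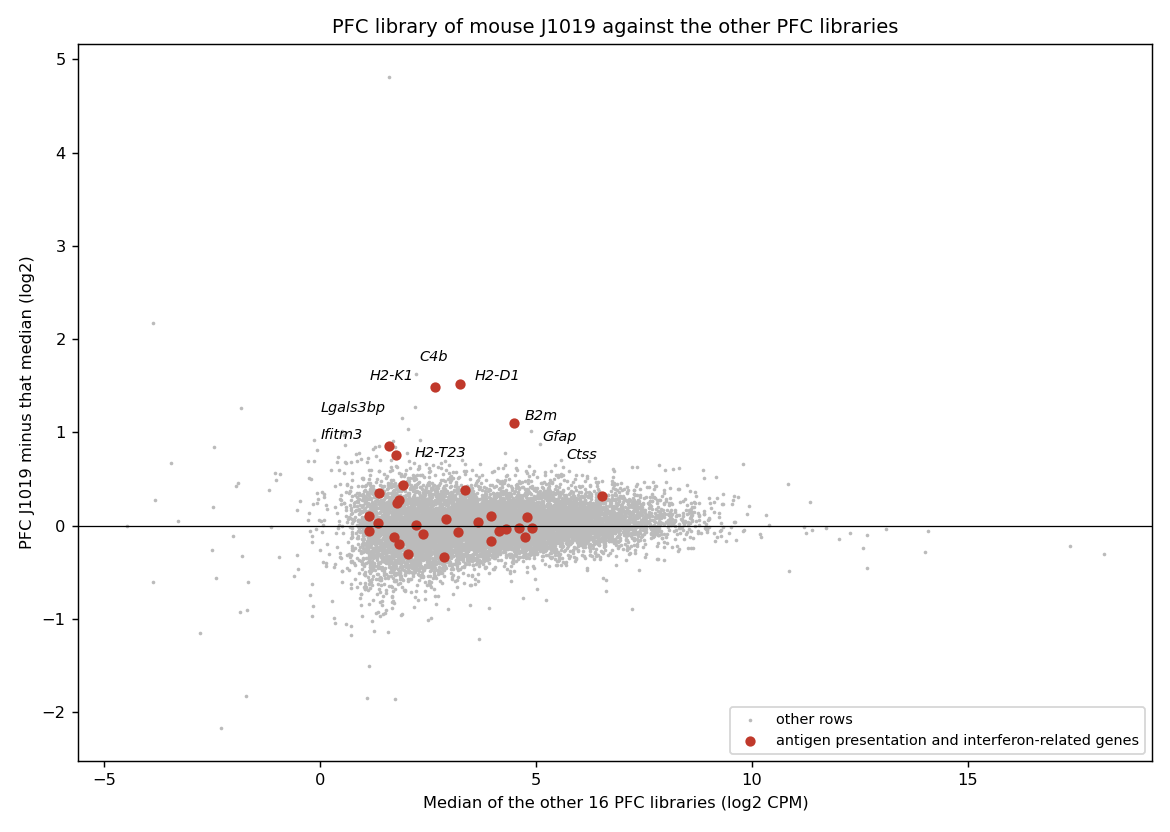
For each of the 11569 rows, the level in the PFC library of mouse J1019 minus the median of the other 16 PFC libraries (y axis, log2) against that median (x axis, log2 CPM). The 31 genes are red and the other rows grey, and H2-D1 (1.52), H2-K1 (1.49) and B2m (1.10) lie well above the other red points.

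The third question was whether these genes vary together across the libraries of a region. Those libraries pool mice whose sex and CRD or control group are not labelled. The part of sex and of CRD in the relations was not tested. Of the 21 pairs listed, 10 could be tested in the SCN and 9 each in the NAc and PFC, 28 relations that were adjusted together, and 10 were called with Pearson's r and a permutation test. The share called among pairs of other genes was not computed, so a called pair is not shown to be closer than other pairs. In the SCN (n = 19), H2-D1 followed B2m (r = 0.74, permutation p = 0.00022, adjusted p = 0.00182, Spearman's rho = 0.82, permutation p = 3e-05), with r = 0.75 in the lower and 0.79 for the upper range, and 0.75 after removal of the 2 farthest libraries. H2-K1 followed B2m there with r = 0.69 (permutation p = 0.0014, adjusted p = 0.00653, rho = 0.68, permutation p = 0.00173), with 0.85 in the lower and 0.65 for the upper range, and with 0.58 and no call (adjusted p = 0.0667) without the 2 farthest libraries. H2-K1 and H2-D1 had r = 0.55 (permutation p = 0.015, adjusted p = 0.0421, rho = 0.51, permutation p = 0.0267), with r = 0.50 and 0.59 in the ranges. The call was lost, though r was no lower, without SCN J1199 and J1140 (r = 0.56, adjusted p = 0.0512) and without the 2 farthest libraries (r = 0.58, adjusted p = 0.0667). These calls rest on all 19 libraries. Within the ranges, which hold 7 to 14 libraries a region, most calls were lost. Of the 10 pairs, 1 was called for the lower range, Jak1 with Stat3 in the NAc (adjusted p = 0.023), and 2 for the upper, that pair (adjusted p = 0.0246) and H2-D1 with B2m in the SCN (adjusted p = 0.0354). Other class I genes followed B2m less closely in the SCN, with r = 0.26 for H2-Q2 and 0.075 for H2-T22, given as a description.

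In the NAc (n = 26), the same pairs were not called. H2-K1 and B2m had r = 0.044 (permutation p = 0.829, adjusted p = 0.829, rho = 0.23), H2-D1 and B2m r = 0.37 (permutation p = 0.0612, adjusted p = 0.107, rho = 0.32) and H2-K1 and H2-D1 r = 0.084 (permutation p = 0.681, adjusted p = 0.763, rho = 0.12). Whether these differ from the SCN was not tested. B2m followed Tapbp instead, with r = 0.62 (permutation p = 0.00236, adjusted p = 0.00826, rho = 0.46, permutation p = 0.0204), 0.56 and 0.70 in the ranges, 0.57 and no call (adjusted p = 0.0558) without the 2 farthest libraries, and 0.49 without J1018. In the PFC (n = 17), r was 0.89 for H2-D1 with B2m (permutation p = 0.00025, adjusted p = 0.00182), 0.87 for H2-K1 with B2m (permutation p = 0.00061, adjusted p = 0.00342) and 0.85 for H2-K1 with H2-D1 (permutation p = 0.0134, adjusted p = 0.0418). Their rho was 0.66 (permutation p = 0.00489), 0.43 (permutation p = 0.0867) and 0.22 (permutation p = 0.39). Without J1019 the r were 0.66, 0.57 and 0.20, with adjusted p of 0.0305, 0.0646 and 0.54, so the relations of H2-K1 in the PFC rested on that library. Without the 2 farthest libraries all 3 lost their call (r = 0.37, 0.41 and 0.42), and in the upper range r was 0.67, 0.73 and 0.32.

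Jak1 and Stat3 were the 1 pair called in all 3 regions. The SCN gave r = 0.67 (permutation p = 0.00166, adjusted p = 0.00664, rho = 0.53, permutation p = 0.0222), the NAc 0.80 (permutation p = 1e-05, the smallest that 100000 resamples can give, adjusted p = 0.00028, rho = 0.82, permutation p = 1e-05) and the PFC 0.75 (permutation p = 0.00026, adjusted p = 0.00182, rho = 0.75, permutation p = 0.00082). For the SCN, NAc and PFC in turn, r was 0.74, 0.83 and 0.84 for the lower range and 0.69, 0.79 and 0.65 for the upper range. Without the 2 farthest libraries it was 0.40, 0.71 and 0.67, and the call held in the NAc alone. Ifit3 with Oasl2, interferon-stimulated genes with rows in the SCN table, was not called there (r = 0.49, permutation p = 0.0322, adjusted p = 0.0752, rho = 0.55). Nor were the receptor chains in any region, with adjusted p of 0.107 or more for Ifnar1 with Ifnar2 and 0.132 or more for Ifngr1 with Ifngr2.

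Over all pairs of these genes, given as a description, the median r was 0.15 in the SCN (561 pairs), 0.0069 in the NAc and 0.026 in the PFC (465 pairs each), and r was above 0.6 in 45, 12 and 14 pairs. No such values were computed for pairs of other genes. Among the class I chains alone the median r was 0.53 in the SCN (15 pairs), 0.034 in the NAc and 0.41 in the PFC (10 pairs each). The interferon-stimulated genes had medians of 0.39, -0.0032 and 0.12. The highest r of all was 0.91 for Jak1 with Irf2bpl in the SCN. The points of a region share libraries, and genes are not independent replicates.

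**Figure D4:**
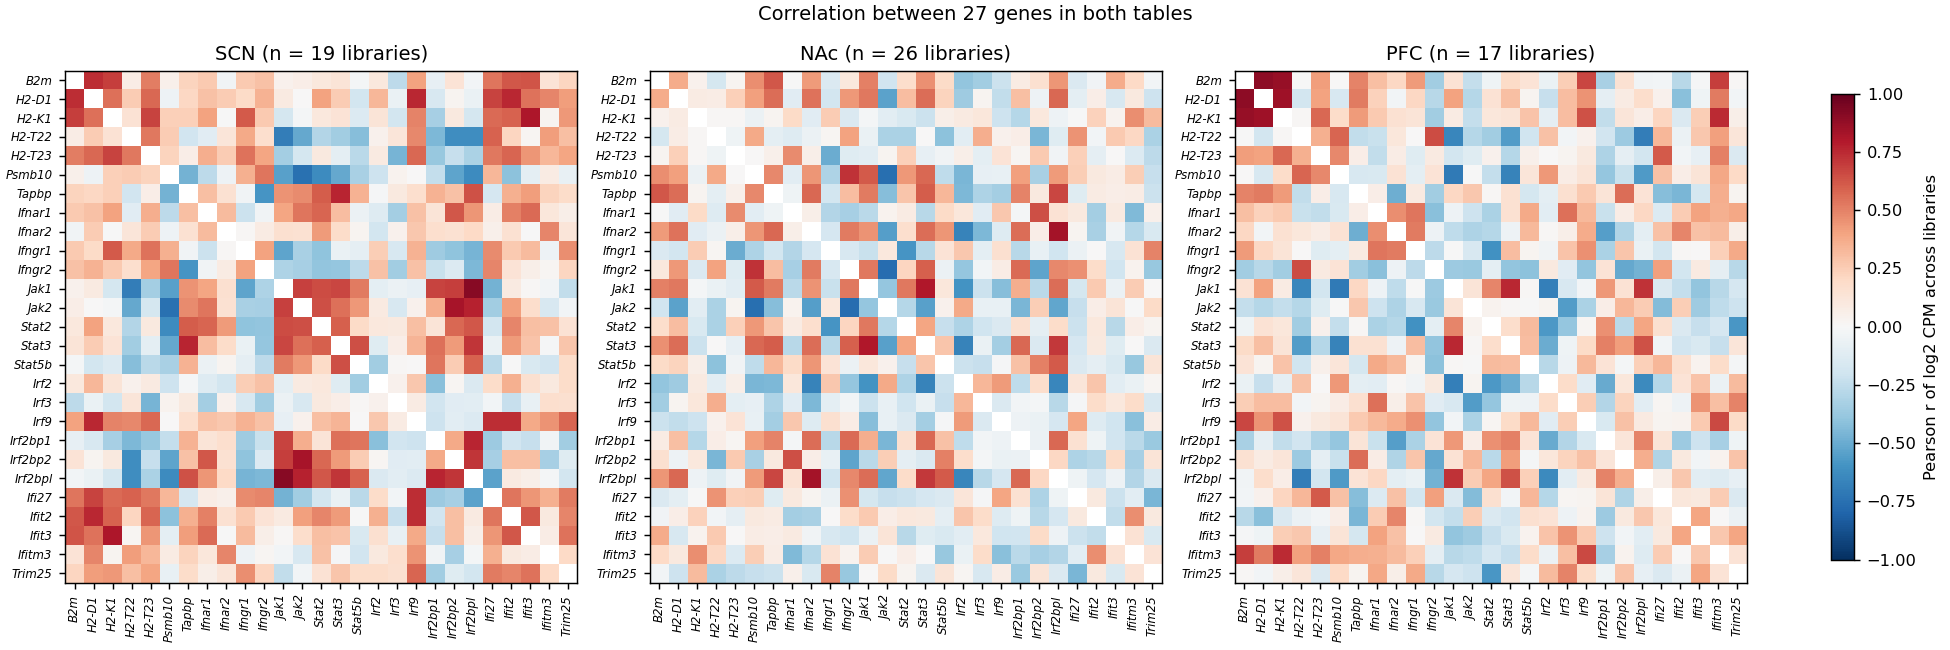
Pearson r of log2 CPM across libraries for 27 of the genes in both tables, in the SCN, NAc and PFC (red positive, blue negative, diagonal left white). B2m, H2-D1 and H2-K1 form a red block in the SCN and the PFC and not in the NAc. There the r with B2m is 0.044 for H2-K1 and 0.37 for H2-D1. The block of the PFC rests in part on J1019, without which the r of H2-K1 with H2-D1 falls from 0.85 to 0.20.

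The levels were then set against a microglia score and an endothelial score, each the mean z-score of marker genes outside the list, in tests over all rows of a region. In the SCN, B2m was the 1 of 34 genes that followed the microglia score, against 0.822% of all rows. Its r was 0.86 (n = 19, permutation p = 1e-05, the smallest possible, adjusted p = 0.00753, rho = 0.81, permutation p = 3e-05), with 0.93 for the lower range, 0.86 for the upper, where the call was lost (adjusted p = 0.0986), and 0.87 without the 2 farthest libraries. H2-D1 (r = 0.71, permutation p = 0.00067, adjusted p = 0.0542, rho = 0.69) and H2-K1 (r = 0.70, permutation p = 0.00103, adjusted p = 0.0572, rho = 0.72) missed the call, and without J1199 and J1140 H2-K1 passed it. In the SCN 9 of the 34 genes (26.5%) had a positive r at an unadjusted permutation p under 0.05, against 9.65% of all rows. In the NAc 0 of 31 genes were called, against 0.925% of all rows, with 2 (6.45%) and 8.17% of all rows at an unadjusted permutation p under 0.05, and B2m had r = 0.46 (n = 26, permutation p = 0.0158, adjusted p = 0.202, rho = 0.46). In the PFC 0 were called, against 0% of all rows, with 3 (9.68%) and 7.66% of all rows at an unadjusted permutation p under 0.05. Tapbp came nearest there, with r = 0.75 (n = 17, permutation p = 0.00028, adjusted p = 0.0729, rho = 0.81), and was called with Spearman's rank correlation.

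For the endothelial score, 0 of 34 genes were called in the SCN, against 0.216% of all rows, with 6 (17.6%) and 8.15% of all rows at an unadjusted permutation p under 0.05. In the NAc 1 of 31 was called, against 6.78% of all rows. It was B2m, with r = 0.66 (n = 26, permutation p = 0.00014, adjusted p = 0.00672, rho = 0.58, permutation p = 0.00221), 0.80 for the lower and 0.53 for the upper range, and 0.57 without the 2 farthest libraries, where the call was lost. In the PFC 1 of 31 was called, against 3.44% of all rows, and it was Ifnar1, with r = 0.68 (n = 17, permutation p = 0.00167, adjusted p = 0.0397, rho = 0.60, permutation p = 0.0123). Its r was 0.051 for the lower and 0.83 for the upper range, and 0.43 with no call after removal of the 2 farthest libraries. In no region was the share of these genes called above that of all rows. At an unadjusted permutation p under 0.05, the NAc and PFC each had 5 of 31 genes (16.1%), against 15.9% and 11.3% of all rows.

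**Figure D5:**
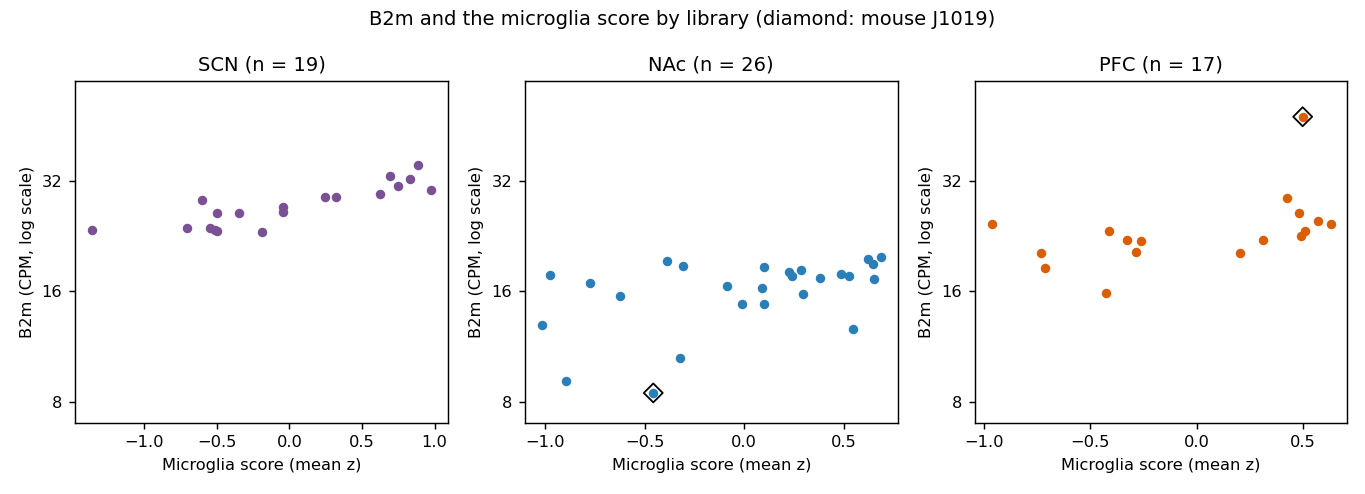
B2m in CPM (y axis, log scale) against the microglia score (x axis, mean z-score of the markers within a region) for each library of the SCN, NAc and PFC. In the SCN the points rise together (r = 0.86), and the diamonds mark mouse J1019, whose NAc library holds 8.45 CPM and whose PFC library holds 47.9 CPM.

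Libraries of different regions of 1 mouse were compared to see whether a mouse that was high in 1 region was high in another. No gene was called, with 0 of 31 for the NAc with the PFC (17 mice), 0 of 28 for the SCN with the NAc (19 mice) and 0 of 28 for the SCN with the PFC (12 mice), against 0% of all rows in each. After adjustment over all rows, even the smallest possible permutation p, 1e-05, does not pass for a gene that stands alone. The lack of calls thus cannot show that levels are not shared within a mouse. At an unadjusted permutation p under 0.05 with a positive r there were 1, 0 and 2 genes, and 322, 146 and 449 rows. The 1 for the NAc with the PFC was Psmb10, with r = 0.57 (permutation p = 0.0162, adjusted p = 0.45, rho = 0.54), 0.038 for the lower and 0.77 for the upper range. B2m had r = -0.53 (permutation p = 0.0288, adjusted p = 0.496, rho = -0.21), and -0.35 without the 2 farthest mice.

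In the SCN, J1018 was the highest library in 8 of the 34 genes (23.5%, against 5.89% of all rows), H2-D1, H2-Q2, H2-T23, Ifngr1, Ifngr2, Ifit2 and Trim25 among them. J1177 was the highest in 7 (20.6%, against 5.97% of all rows), H2-T22, Tap2, Ifnar1, Irf9, Ifi27, Ifit3b and Oasl2. These libraries also had the highest sums of microglia markers in the SCN, 272 and 268 CPM against a median of 194 CPM, and J1018 had the next to lowest sum of SCN markers, 33.2 CPM. J1017 was the lowest library in 9 genes (26.5%, against 10.6% of all rows), Jak1, Jak2, Stat2, Stat5b and Ifit2 among them, and had the lowest sums of endothelial, oligodendrocyte and astrocyte markers, 77.1 against 106 CPM, 364 against 1078 CPM and 799 against 1031 CPM. The part of cell composition in these values was not tested.

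The rows whose log2 CPM was most like that of B2m across the libraries of a region, by Pearson's r, were H2-D1 (0.89), H2-K1 (0.87) and C4b (0.85) in the PFC, Mapk3 (0.83), Etfdh (0.83) and Naxd (0.81) in the SCN, and Rab11b (0.81), Nub1 (0.81) and Tcf20 (0.80) in the NAc. H2-D1 and H2-K1 were thus nearest to B2m in the PFC alone, where J1019 lies far from the other libraries in these genes and in B2m.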

How the data were processed

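The deposited data are gene counts of 62 libraries, which the authors made with a SmartSeq HT kit, HISAT2 alignment to GRCm38 and HTSeq counting, filtered for low expression and left without normalization, as 2 tables, the SCN apart from the other regions. FastQC 0.11.7 is named in the submitters' notes, and the annotation release is not given in the sources used here. GENCODE M21, on the same build, gave each gene's name, type and exon length for 11545 of 11569 and 12020 of 12047 rows.

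The members and lists were chosen with earlier results of these data known. NAc libraries were set against PFC libraries in edgeR 4.0.16 (R 4.3.3) by its quasi-likelihood test with TMM and filterByExpr, which removed no row, at a Benjamini-Hochberg adjusted p under 0.05 over all rows and a fold change of at least 1.2. DESeq2 1.42.0 was an alternative. In counts simulated for this comparison on 11569 genes, edgeR recovered 189 of 200 genes changed 1.5-fold and called 7 others, and DESeq2 recovered 191 and called 11 others. Relations used log2 CPM (prior count 2) and two-sided permutation tests with 100000 resamples, adjusted over all rows of a region, or over the 28 pairs. Adjusted over all rows, the smallest p of 1e-05 passes only where several rows are about as low. In simulated data of 19 libraries, 200 of 200 strong made relations were recovered, with 7 and 4 other rows called for scores and for mice. Many strong relations at once make calls easier, so this gives no measure of power for weak or single relations. A score left out members and genes with a mean under 1 CPM. CPM values are scaled within a table. P-values of the relations measure the spread between different mice. The main test of NAc against PFC took its 43 libraries as independent, although 17 mice gave a library of each region.

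In 17 mice the NAc and PFC libraries are paired by animal, and their deviations from the region means correlated at -0.45 to 0.27 (median 0.0061), over 0.1 in 7 mice. Any member could be named, the 5 called members with the largest change in each direction are among those given in full, other pathway genes came from 1 list, and the 3 rows most like B2m were taken. Some items are not reported here, although counts and medians over all members include them. The alternatives were other size factors, filters, the block, both ranges alone, a prior count of 0.5, Spearman's correlation, and leaving out ribosomal and mitochondrial genes or libraries. Leaving out PFC J1019, and NAc libraries with more cortical markers, was chosen after seeing the data, as were the descriptions of single libraries. That choice of NAc libraries used 1 cortical marker more than the 3 named, and 12 of its 13 libraries fall in it by the 3 as well. Other steps used Python 3.11.15, scipy 1.17.1, pandas 2.3.3 and numpy 2.4.6.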

Additional observations from a re-analysis of the deposited data

How the results depend on the processing

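Between the NAc and PFC, 13 genes lower and 5 higher were also called with DESeq2, with its size factors, without a filter (no row was removed, so this adds nothing) and with a filter of CPM above 1 in 50% of each region. With the mouse number as a replicate block in 17 mice, 3 genes were called higher in place of 5, and 13 lower, with Ifnar1, Irf2bp1 and Irf2bpl lost and Stat2 gained, and it changed no other call. The lower range of mouse numbers gave 3 genes higher. Lower genes numbered 10 to 13 over all alternatives. Of 341 recomputed fold changes of single genes, 307 kept their direction and their side of the threshold, 18 lost the call, 8 gained it and 8 changed sign. The sign changed for genes that were not called. Ifnar2 had -0.058 with the block, -0.039 in the 17 mice without it, -0.15 in the lower range and -0.070 in the NAc libraries with fewer cortical markers. Stat3 had 0.10 in the upper range, Irf2 0.027 in the lower range, and Ifi27 -0.081 in the lower range and -0.10 with fewer cortical markers. Of the 28 pairs, 10 were called with Pearson's r, 5 by Spearman's rho, 2 for the upper and 1 for the lower range (added after seeing the data) and 2 after removal of the 2 farthest libraries, and 7 without PFC J1019, where H2-K1 with H2-D1 was lost in the SCN too because the pairs are adjusted together. The microglia score in the SCN had 0 genes in the upper range and 2 without J1199 and J1140, and in the PFC 1 with rank correlation. The endothelial score in the NAc had 2 genes with DESeq2 size factors and 0 for the upper range, by ranks or without the 2 farthest libraries. The PFC had 0 under those 3 settings and when centred within ranges. Fewer libraries entered the ranges, and otherwise the cause was not tested. For the same mouse, leaving out the 2 farthest was computed as r alone. Genes near 2 CPM, with under 50 counts in the shallowest libraries, are limited by counting error.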
